A study of Mus musculus with 83 samples.

Results

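Calcium that enters a neuron binds calmodulin, and the loaded calmodulin switches on a set of kinases and 1 phosphatase. The genes described here are 9 of these: Camk2a, Camk2b, Camk2d and Camk2g, which encode the 4 subunits of the holoenzyme CaMKII. Camkk2 and Camk4 form a kinase cascade that reaches the nucleus. Ppp3ca, Ppp3cb and Ppp3r1 encode subunits of the phosphatase calcineurin. They were taken by name as 9 rows of a table of 48795 genes, and all 9 had counts in all 83 libraries. Each RNA-seq library came from a pool of 125 neurons cut by laser from 14 µm sections of frontal cortex. The mice were male C57BL/6 animals aged 2 months (young, 9 mice) or 22 months (old, 12 mice), with no genetic change or treatment named. Cells were recognised by staining: pyramidal cells (PYC) by Slc17a7, and 3 kinds of interneuron by Pvalb (parvalbumin, PV), Sst (somatostatin, SST) and Vip (vasoactive intestinal peptide, VIP). Each type had 12 old libraries. There were 9 young libraries each for PYC, SST and VIP and 8 for PV.

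CaMKII is among the most abundant proteins of excitatory synapses. Its subunits assemble into mixed rings, and phosphorylation of a threonine beside the calmodulin-binding segment lets a ring stay active after calcium has fallen. The alpha subunit is known as a protein of forebrain excitatory neurons, and its mRNA is carried into dendrites. CaMKK2 phosphorylates CaMKIV, which acts on transcription factors such as CREB. Calcineurin has a catalytic A subunit, from Ppp3ca or Ppp3cb in brain, and a calcium-binding B subunit from Ppp3r1, and it removes phosphates at the synapse and from NFAT factors.

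The 60 coding bases around the autophosphorylated threonine are shown for 3 CaMKII genes, because a count table can separate the 4 subunits only as far as their transcripts differ. The sequences are from the GENCODE M21 coding transcripts (GRCm38, coding strand, 5′ to 3′), and the capitals mark the threonine codon, number 287 of each transcript, which lies in exon 11.
Camk2b: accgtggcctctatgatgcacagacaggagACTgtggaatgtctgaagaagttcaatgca
Camk2d: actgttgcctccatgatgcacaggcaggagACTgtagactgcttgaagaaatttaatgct
Camk2g: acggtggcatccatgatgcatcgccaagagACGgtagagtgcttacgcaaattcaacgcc
Camk2b and Camk2d had the same base at 49 of these 60 positions, Camk2d and Camk2g at 44, and Camk2b and Camk2g at 41. The stretch of Camk2a shared 52 bases with Camk2b. No run of 50 bases was common to the protein-coding transcripts of any 2 of the 9 genes, so a read of that length matching without error belongs to 1 of them.

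Between 1.46 M and 27.2 M reads were counted in a library (median 6.99 M), and the lowest count of any member in a library was 25, for Camk2d. Mitochondrial genes held only 0.215% to 2.51% of the reads counted in 6 libraries, and 8.31% to 17.0% in the remaining 77. These 6 were young PYC replicate 2, old PYC replicate 10, young SST replicate 6, young VIP replicates 1 and 3 and old VIP replicate 11. Levels below are in CPM (counts scaled to the library total). The capture labels were checked by the stained genes: Pvalb averaged 76.5 ± 34.6 CPM (SD, n = 20) in PV pools, Sst 812 ± 198 CPM (SD, n = 21) in SST pools and Vip 686 ± 475 CPM (SD, n = 21) in VIP pools, and each was at most 57.6 CPM on average in pools of another type. That highest mean was Sst in VIP pools, at 18.3 ± 18.8 CPM (SD, n = 9) in young and 87.0 ± 142 CPM (SD, n = 12) in old pools. The highest old VIP library held 439 CPM. Slc17a7 averaged 822 ± 278 CPM (SD, n = 21) in PYC pools and 257 to 471 CPM in interneuron pools. Gad1, a GABA-synthesising enzyme gene, averaged 40.9 ± 24.7 CPM (SD, n = 21) in PYC pools. Its means were 1734 ± 278 CPM (SD, n = 20) in PV, 514 ± 170 CPM (SD, n = 21) in SST and 517 ± 143 CPM (SD, n = 21) in VIP pools.

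The first comparison asked how the kinases and the phosphatase are spread over the 4 neuron types. PYC pools were higher than PV pools in 6 of the 9 genes, than SST pools in 7 and than VIP pools in 5. The largest differences were in Camk4 and Camkk2, and Ppp3cb was not called between any pair of types. Camk2a and Camk2b, the main forebrain CaMKII subunits, were not called between PYC and VIP pools. Only Camk2d was called lower in PYC, against VIP. Calls are at an edgeR quasi-likelihood adjusted p under 0.05 over 19208 genes in a fit of all 8 groups. Among all genes tested, 9.68% were called higher and 7.12% lower in PYC than PV, 5.22% higher and 5.59% lower in PYC than SST, and 4.21% higher and 5.23% lower in PYC than VIP. The median log2 fold change of the 9 members was 0.90 against PV, 0.70 against SST and 0.69 against VIP, beside 0.07, -0.02 and -0.03 for all genes. There were more pools than mice, and the labels do not say which pools share a mouse, so these p-values treat the pools as independent. They measure the spread between pools, and in pooled cells a lower level per cell and fewer expressing cells cannot be told apart.

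**Figure D1:**
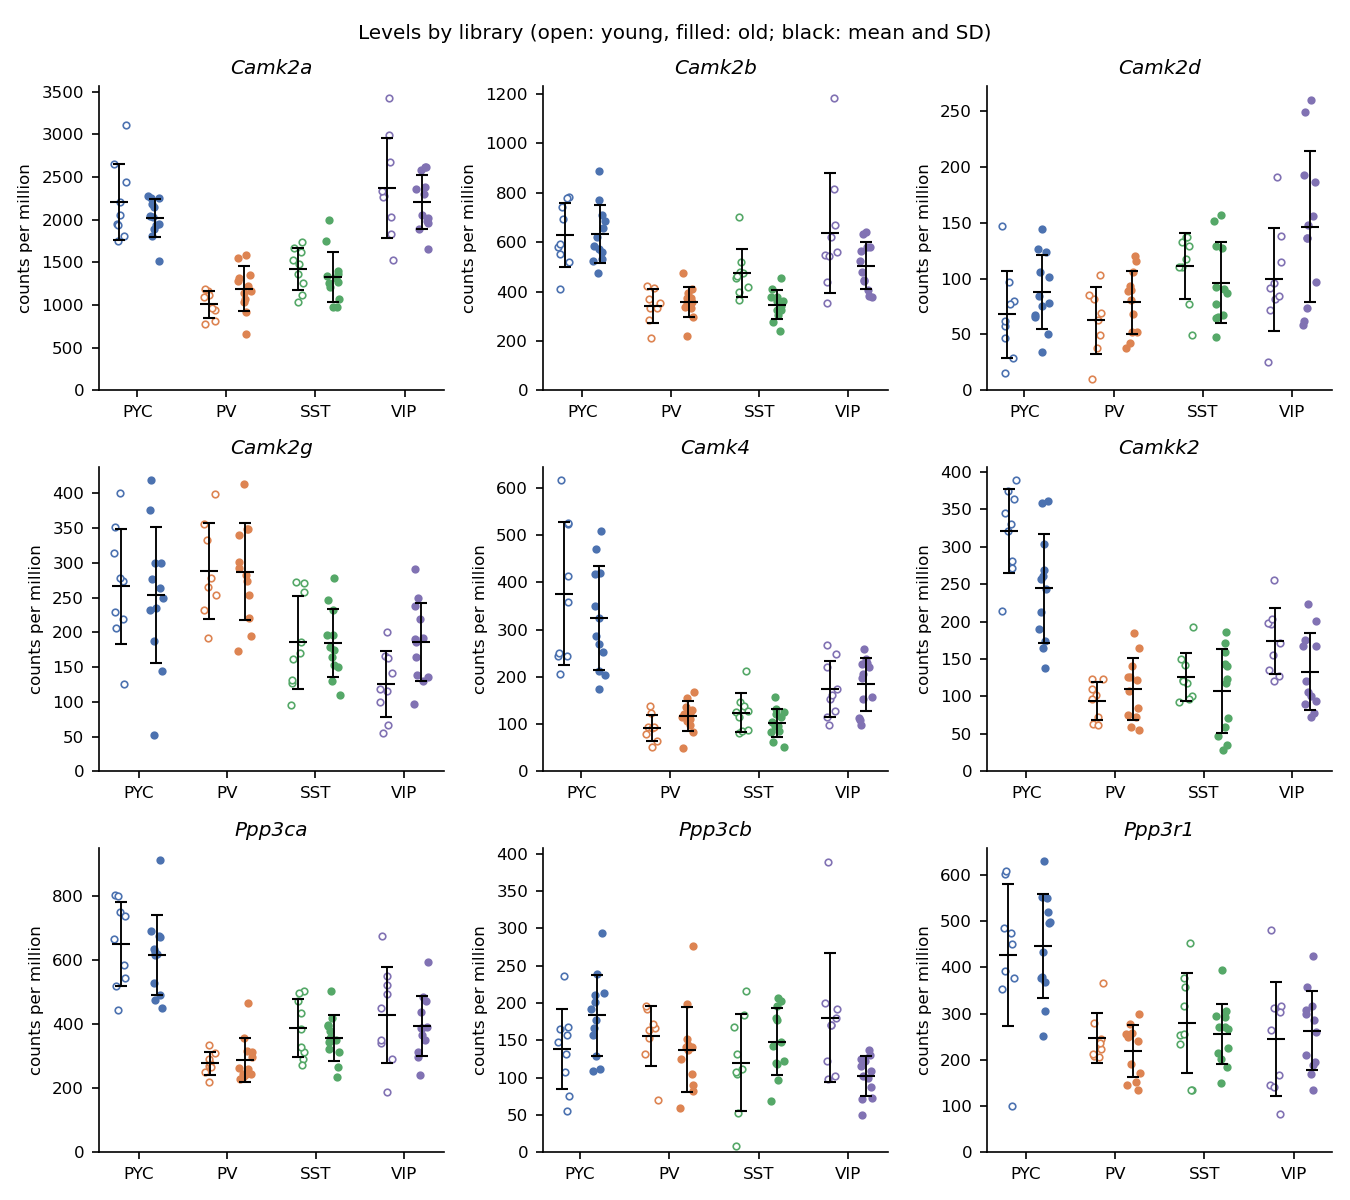
CPM (vertical axis) of the 9 genes in each of the 83 libraries, by neuron type, with young libraries as open and old libraries as filled points and the mean and SD in black. Camk4 in PYC lies above every PV library, Camk2a reaches similar levels in PYC and VIP, and the ranges of Ppp3cb overlap between all types.

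Camk2a (ENSMUSG00000024617, chromosome 18, 60925618 to 60988152, plus strand, GRCm38) was the most abundant member in every type, also per length. In PYC pools its lowest, median and highest levels were 1516, 2041 and 3106 CPM. VIP pools ran from 1530.5 through 2277 to 3429 CPM, and the VIP and PYC ranges overlapped almost whole. SST pools were lower, at 974, 1336 and 2001 CPM. PV pools were lowest, at 667, 1129 and 1587 CPM, and 20 of 21 PYC libraries lay above all 20 PV libraries. Camk2a was 1.91-fold higher in PYC than PV (log2 fold change 0.93 ± 0.08 SE, edgeR adjusted p = 9.19e-18) and 1.61-fold higher in PYC than SST (0.69 ± 0.08, adjusted p = 2.13e-11). Between PYC and VIP it was -0.04 ± 0.08 (adjusted p = 0.875), with an approximate 95% interval of -0.20 to 0.12. VIP pools exceeded PV pools 1.97-fold and SST pools 1.66-fold (edgeR adjusted p = 1.30e-18 and 7.62e-12). PV lay below SST by a smaller step, -0.24 ± 0.08 (edgeR adjusted p = 0.0423), and 6 of 11 other settings did not call that step (range of adjusted p in those 6, 0.0513 to 0.955). Of all genes, 6.85% were called lower in PV than SST, 10.2% lower in PV than VIP and 3.49% lower and 3.03% higher in SST than VIP.

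Camk2a counts in interneuron pools were set beside the markers of pyramidal cells. As a percent of the PYC mean, Camk2a was 53.2 ± 11.3% (SD, n = 20) in PV, 65.0 ± 13.0% (SD, n = 21) in SST and 108 ± 21.3% (SD, n = 21) in VIP pools. A list of 15 pyramidal markers summed to 33.2 ± 7.62%, 44.0 ± 7.66% and 53.7 ± 9.80% of its PYC mean in the same pools. In each interneuron type Camk2a thus stood at a higher fraction of its PYC level than the markers did, with the widest gap in VIP. The summed list ran from 2502 to 4325 CPM in PYC, 612 to 1433 CPM in PV, 943 to 1698 CPM in SST and 991 to 2089 CPM in VIP, and the PYC libraries overlapped with none of the others. Of the 15 markers, 10 were called higher and 1, the upper-layer gene Cux2, lower in PYC against each interneuron type. Slc17a7 had counts in every interneuron library, and 0 of the 15 markers had a median of 0 CPM in PYC, PV and VIP pools at either age, against 1 in old SST pools. In VIP pools Slc17a7 stood at 57.3%, Neurod6 at 39.0% and Tbr1 at 45.4% of their PYC means. The ratio of Camk2a to the summed markers was 0.687 ± 0.111 in PYC, 1.13 ± 0.286 in PV, 1.02 ± 0.202 in SST and 1.41 ± 0.328 in VIP pools.

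A second list held 8 mRNAs of dendritic neuropil, such as Ddn and Shank1, which can be cut along with any cell body. It summed to 74.3 ± 6.76% of the PYC mean in PV, 95.4 ± 12.4% in SST and 113 ± 28.0% in VIP pools, in the same order of types as Camk2a. Between PYC and VIP, 1 of the 8 was called higher and 1 lower, Arc at 1.13 ± 0.37 and Cplx2 at -0.38 ± 0.13. Against PV, 7 of 8 were called higher in PYC. The 3 libraries with the largest neuropil sums, 11198 to 11367 CPM, were young PYC replicate 2 and young VIP replicates 1 and 3, which are among those with few mitochondrial counts. Without the 6 libraries of few mitochondrial counts, Camk2a was at -0.08 between PYC and VIP (edgeR adjusted p = 0.739) and at 0.90 between PYC and PV (adjusted p = 4.17e-17). The part of captured neuropil or of pyramidal RNA in the Camk2a level of interneuron pools was not tested.

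**Figure D2:**
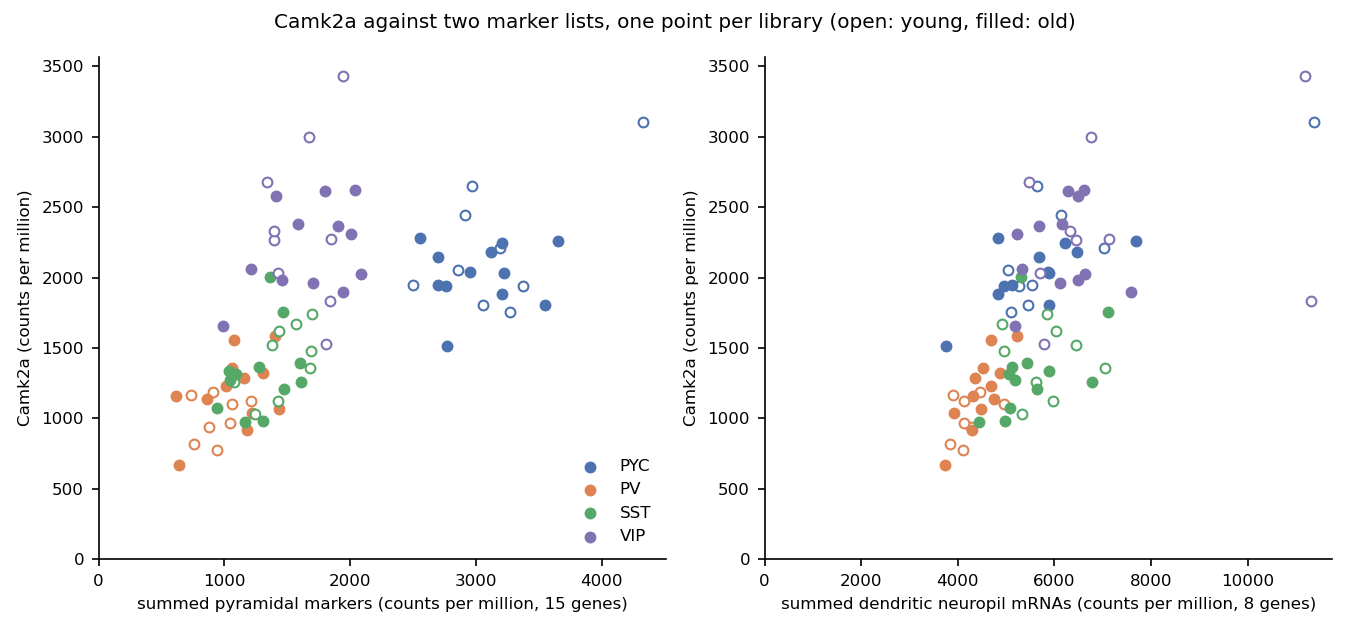
Camk2a in CPM (vertical axes) against the sum of 15 pyramidal markers (left) and of 8 dendritic neuropil mRNAs (right), 1 point per library, colored by type, open for young and filled for old. On the left, VIP libraries reach the Camk2a level of PYC at a lower marker sum. On the right, the types overlap, and 3 libraries stand apart at 11198 to 11367 CPM.

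Across libraries of 1 type, Camk2a and the mean log2 level of the 15 pyramidal markers were related in PYC only after adjustment over the 4 types. In PYC Pearson's r was 0.56 (permutation p = 0.00746, adjusted p = 0.0298) and Spearman's rho 0.40 (permutation p = 0.0718, adjusted p = 0.144) over 21 libraries. Without the 2 libraries farthest from the median r was 0.22, and with a prior count of 0.5 in place of 2 it was 0.55 over all libraries (permutation p = 0.00696, adjusted p = 0.0278) and 0.45 without the 2 farthest. Without the libraries of few mitochondrial counts r was 0.40 (permutation p = 0.0881, adjusted p = 0.117). Within young PYC pools r was 0.66 (exact permutation p = 0.0445, n = 9) and within old ones 0.34 (permutation p = 0.275, n = 12). The young value rested on few libraries: without the 2 farthest r was 0.0016, and rho over all 9 was 0.52 (exact permutation p = 0.162). Old PYC pools gave r of 0.48 without the 2 farthest. In PV r was 0.46 (permutation p = 0.0410, adjusted p = 0.0820), with rho 0.43 (permutation p = 0.0627, adjusted p = 0.144). In SST r was 0.38 (permutation p = 0.0880, adjusted p = 0.117), with rho 0.33 (permutation p = 0.141, adjusted p = 0.187). In VIP r was -0.31 (permutation p = 0.168, adjusted p = 0.168), with rho -0.25 (permutation p = 0.272, adjusted p = 0.272). Without the 2 farthest libraries these were 0.32, 0.21 and -0.34. Within young and old PV pools r was 0.24 and 0.60 (permutation p = 0.589 and 0.0572, n = 8 and 12). In SST pools r was 0.70 and 0.01 (permutation p = 0.0168 and 0.961, n = 9 and 12). For young SST pools rho was 0.52 (permutation p = 0.162), and r was 0.44 without the 2 farthest libraries. In VIP pools r was -0.61 and 0.06 (permutation p = 0.0847 and 0.856, n = 9 and 12). The p-values within an age were not adjusted.

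Camk2b (chromosome 11, 5969644 to 6066362, minus strand) has a product that binds actin and targets the kinase ring to dendritic spines. Like Camk2a, it was higher in PYC and VIP than in SST and PV pools, at a lower level. Between PYC and VIP the order of means differed, with Camk2b at 630 and 561 CPM and Camk2a at 2104 and 2277 CPM. Camk2b was spread as follows. Its lowest, median and highest levels were 409, 591 and 886 CPM in PYC and 352, 550.1 and 1184 CPM in VIP pools. In SST pools they were 239, 378 and 701 CPM, and in PV pools 213, 357 and 474 CPM. PYC and VIP overlapped widely, whereas 20 of 21 PYC libraries lay above every PV library. PYC exceeded PV 1.79-fold (0.84 ± 0.10, edgeR adjusted p = 4.60e-12) and SST 1.63-fold (0.70 ± 0.10, adjusted p = 3.79e-09). Against VIP the difference was 0.23 ± 0.10 (edgeR adjusted p = 0.137), with an approximate 95% interval of 0.04 to 0.41, and 3 of 11 other settings called it: without the 6 libraries of few mitochondrial counts (0.32, adjusted p = 0.0164), in old libraries alone (0.37, adjusted p = 0.0374) and with limma-voom (0.26, adjusted p = 0.0496). VIP was also above PV, by 0.61 ± 0.10, and above SST, by 0.48 ± 0.10 (edgeR adjusted p = 3.57e-07 and 0.000260). With young libraries alone neither the step from PYC to SST (0.47, adjusted p = 0.125) nor that from VIP to SST (adjusted p = 0.354) was called, and limma-voom did not call the latter (adjusted p = 0.0835).

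Camk2g (chromosome 14, 20734875 to 20794088, minus strand) had another order of types. Its product can carry calmodulin from the synapse to the nucleus. PV pools were highest, at 173, 280.2 and 413 CPM, and PYC pools next, at 51.7, 263 and 419 CPM. SST pools held 95.2, 174 and 278 CPM and VIP pools 54.8, 163 and 291 CPM. PV and PYC did not differ beyond their spread (-0.15 ± 0.15, edgeR adjusted p = 0.614). PV exceeded SST 1.65-fold (0.72 ± 0.15, edgeR adjusted p = 0.000227) and VIP 2.01-fold (1.01 ± 0.15, adjusted p = 6.26e-08). It was the only member called higher in PV than in another interneuron type, while 4.05% and 6.73% of all genes were called higher in PV than SST and than VIP. PYC exceeded SST by 0.57 ± 0.15 and VIP by 0.86 ± 0.15 (edgeR adjusted p = 0.00392 and 5.72e-06). With old libraries alone neither of these PYC calls was made (0.53, adjusted p = 0.0937, and 0.51, adjusted p = 0.135). With young libraries alone the calls against SST were not made for PYC (adjusted p = 0.176) or PV (adjusted p = 0.0519).

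Camk2d (chromosome 3, 126596302 to 126846326, plus strand), best known as the main cardiac CaMKII gene, was the least abundant of the 4 per length. It ran through 15.2, 77.4 and 147 CPM in PYC, 9.83, 75.0 and 120.4 CPM in PV, 47.5, 109.9 and 157 CPM in SST and 25.1, 115 and 259.6 CPM in VIP pools. All types overlapped, and 5 VIP libraries lay above every SST library. VIP exceeded PV by 0.70 ± 0.21 and PYC by 0.59 ± 0.20 (edgeR adjusted p = 0.00936 and 0.0446). The step from PYC was not called in 5 of 11 other settings (adjusted p = 0.0511 to 0.741 in those 5), and that from PV was not called by limma-voom (adjusted p = 0.0951) or in young libraries alone (adjusted p = 0.494). Other annotated transcripts lie within its bounds on the same strand, and the one with the most counts, Gm43011, held 2451 counts over all libraries beside 58519 of Camk2d.

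The upstream kinase gene Camkk2 (chromosome 5, 122731170 to 122779409, minus strand) and the nuclear kinase gene Camk4 (chromosome 18, 32934931 to 33191228, plus strand) had the clearest pyramidal preference of the 9. Camk4 ran through 174, 324 and 615 CPM in PYC and 50.2, 109.6 and 168 CPM in PV pools, with no overlap between the 2 types. How many of all genes lack such overlap was not counted. SST pools held 51.4, 114 and 213 CPM. VIP pools lay between, at 98.5, 174 and 266 CPM. PYC exceeded PV 3.36-fold (1.75 ± 0.16, edgeR adjusted p = 5.98e-18), SST 3.25-fold (1.70 ± 0.15, adjusted p = 1.70e-17) and VIP 2.05-fold (1.04 ± 0.15, adjusted p = 3.83e-08). VIP was above PV by 0.71 ± 0.15 and above SST by 0.66 ± 0.15 (edgeR adjusted p = 0.000205 and 0.00135), and PV and SST were not called different (-0.05 ± 0.15, adjusted p = 0.932). In young libraries alone VIP against SST was not called (adjusted p = 0.570). Camk4 stood at 30.9% of its PYC mean in PV, 32.4% in SST and 52.0% in VIP pools, where the pyramidal marker sum stood at 33.2%, 44.0% and 53.7%.

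Camkk2 ran through 138, 271 and 388 CPM in PYC pools. PV pools held 54.7, 105 and 185 CPM, SST pools 28.4, 121 and 193 CPM and VIP pools 72.4, 155 and 256 CPM. Of 21 PYC libraries 18 lay above all PV, 17 above all SST and 14 above all VIP libraries. PYC exceeded PV 2.75-fold (1.46 ± 0.17, edgeR adjusted p = 1.84e-12), SST 2.54-fold (1.34 ± 0.16, adjusted p = 3.54e-11) and VIP 1.95-fold (0.96 ± 0.16, adjusted p = 2.33e-06). VIP was above PV by 0.50 ± 0.16 (edgeR adjusted p = 0.0236), a call that was not made in old libraries alone (0.20, adjusted p = 0.8002) or with the F number of the titles, whose meaning the labels do not give, as a factor (0.45, adjusted p = 0.0589). The value for VIP against SST was 0.38 ± 0.16 (edgeR adjusted p = 0.161).

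**Figure D3:**
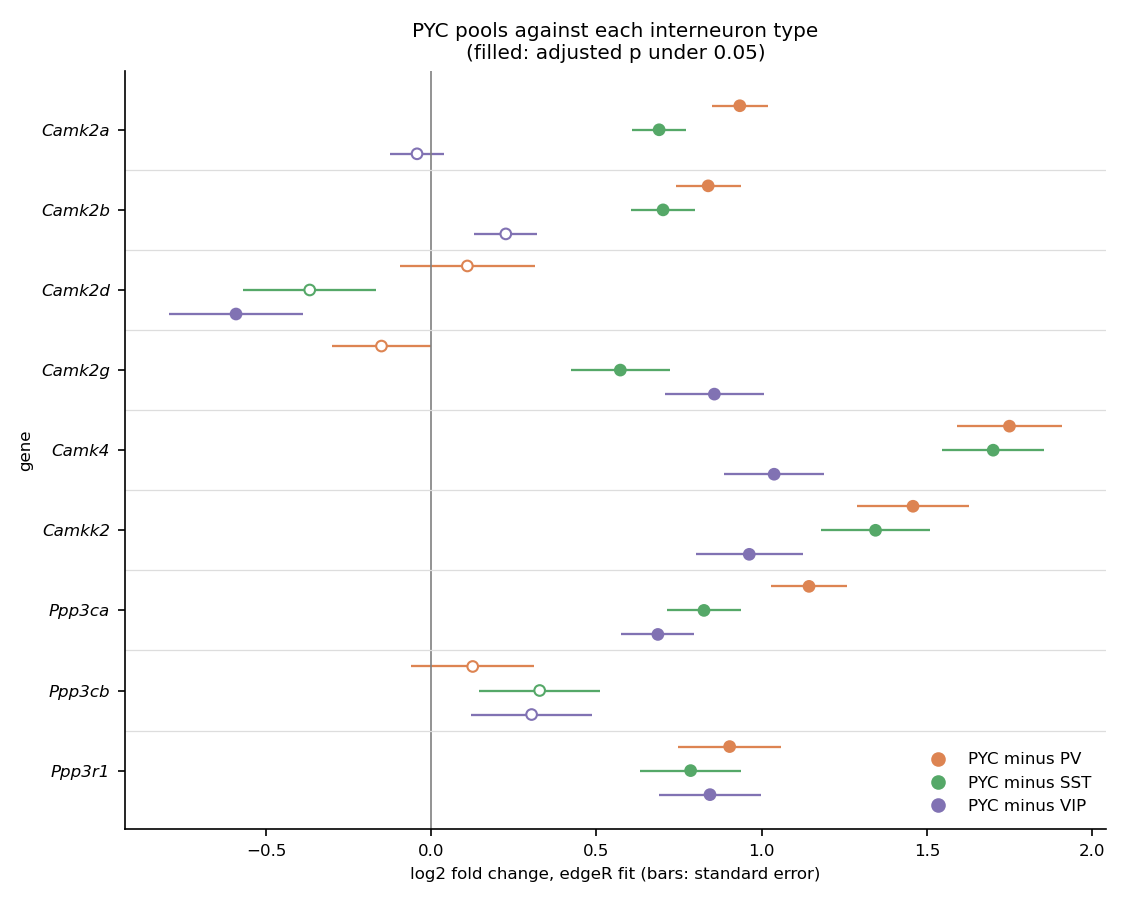
Log2 fold changes of the 9 genes (horizontal axis) in PYC pools against PV, SST and VIP pools. Bars are standard errors derived from the edgeR F-test, and points are filled where the adjusted p was under 0.05. Camk4 and Camkk2 lie farthest to the right in all 3 comparisons, Camk2a and Camk2b have open points against VIP alone, and Ppp3cb has no filled point.

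Of the calcineurin genes, Ppp3ca and Ppp3r1 were higher in PYC than in each interneuron type, and Ppp3cb was not. Ppp3ca (chromosome 3, 136670124 to 136937727, plus strand), the main neuronal A subunit gene, ran through 443, 625.2 and 912 CPM in PYC, 221, 267 and 466.5 CPM in PV, 235, 356 and 504 CPM in SST and 189, 388 and 675 CPM in VIP pools. Of the PYC libraries 19 lay above all PV, 17 above all SST and 6 above all VIP libraries. PYC exceeded PV 2.21-fold (1.14 ± 0.11, edgeR adjusted p = 1.59e-15), SST 1.77-fold (0.83 ± 0.11, adjusted p = 1.68e-09) and VIP 1.61-fold (0.69 ± 0.11, adjusted p = 7.93e-07). PV was below VIP by 0.46 ± 0.11 and below SST by 0.32 ± 0.11 (edgeR adjusted p = 0.00139 and 0.0498). The second step was not called in 6 of 11 other settings (adjusted p = 0.0518 to 0.544 in those 6), and the first not in 3 (adjusted p = 0.0600 to 0.208).

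Ppp3r1 (chromosome 11, 17159263 to 17200375, plus strand), the B subunit gene that both A subunits need, ran through 99.7, 451 and 631 CPM in PYC pools. PV pools held 135, 239 and 366 CPM, SST pools 135, 268 and 452 CPM and VIP pools 82.0, 266 and 480.3 CPM. The lowest PYC library, young replicate 2, was below all PV and SST libraries, and 17 PYC libraries were above all PV libraries. PYC exceeded PV 1.87-fold, SST 1.72-fold and VIP 1.79-fold (0.90 ± 0.16, 0.78 ± 0.15 and 0.84 ± 0.15, edgeR adjusted p = 2.83e-06, 5.84e-05 and 1.81e-05). With young libraries alone the values were 0.75, 0.69 and 0.86 and none was called (edgeR adjusted p = 0.112, 0.234 and 0.0810). Its 3 interneuron types did not differ from each other beyond their spread. Wdr92 overlaps the gene on the same strand and held 1500 counts beside 179597 of Ppp3r1.

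Ppp3cb (chromosome 14, 20499364 to 20546573, minus strand) had medians of 166 CPM in PYC, 142 CPM in PV, 131 CPM in SST and 122 CPM in VIP pools. Libraries spanned 55.9 to 294 CPM in PYC, 59.4 to 277 CPM in PV, 7.99 to 216 CPM in SST and 50.7 to 388 CPM in VIP. The 4 ranges overlapped, and the 6 differences between types lay between -0.02 and 0.33 on the log2 scale, none of them called. The intervals leave room for differences: PYC minus SST was 0.33 ± 0.18 with an approximate 95% interval of -0.03 to 0.69. In old libraries alone PYC was called above VIP (0.90, edgeR adjusted p = 0.00195), and limma-voom called PYC above SST (0.65, adjusted p = 0.00841).

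The promoters of Camkk2 and Ppp3cb are shown because these 2 genes stand at opposite ends, Camkk2 called in PYC against all types and Ppp3cb against none. RefSeq promoters on GRCm38.p6 were on hand for 5 of the 9 genes. The 250 bases before each start site are given on the gene's strand, 5′ to 3′, and the capitals mark GC boxes (GGGCGG or CCGCCC), the motif of Sp1-type factors.
Camkk2, minus strand, chr5:122779411-122779660: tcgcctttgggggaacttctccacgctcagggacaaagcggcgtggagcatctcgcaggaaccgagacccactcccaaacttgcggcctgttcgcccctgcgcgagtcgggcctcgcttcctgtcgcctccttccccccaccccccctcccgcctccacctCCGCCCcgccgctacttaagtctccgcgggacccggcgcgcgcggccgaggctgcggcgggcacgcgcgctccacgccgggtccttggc
Ppp3cb, minus strand, chr14:20546574-20546823: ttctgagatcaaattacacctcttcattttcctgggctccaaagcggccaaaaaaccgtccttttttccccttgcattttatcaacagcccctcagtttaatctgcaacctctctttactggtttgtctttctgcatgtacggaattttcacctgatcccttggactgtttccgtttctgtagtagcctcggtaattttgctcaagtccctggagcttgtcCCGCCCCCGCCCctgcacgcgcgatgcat
The Camkk2 window is 72.4% G or C and that of Ppp3cb 48.4%, beside a median of 52.4% over 32851 promoter windows. Camkk2 has 1 GC box and Ppp3cb 2, and 32.7% of all windows hold at least 1. Neither window holds TGACG on either strand, the core of the cAMP response element, which 17.8% of windows hold, or CCAAT, which 33.85% hold. The windows of Camk2b, Camk2d and Ppp3r1, not shown, are 78.4%, 68.4% and 70.8% G or C, with 3, 3 and 4 GC boxes. That of Ppp3r1 also holds TGACG. Camk2d was not called higher in PYC than in any other type, and Ppp3r1 was called higher against each. A match or its absence describes letters in these windows only, and a relation to the levels was not tested.

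The balance among subunits was compared next. CaMKII counts were divided by exon length, so that the 4 genes could be set against each other. This length joins all annotated exons of a gene: 7.465 kb for Camk2a, 9.125 kb for Camk2b, 22.493 kb for Camk2d and 6.401 kb for Camk2g. Shares of 1 gene against another depend on this choice, since a transcript can hold only some of these exons, and no other length was tried. Camk2a made up 71.2 ± 4.36% (SD, n = 21) of the CaMKII total per length in PYC, 63.0 ± 5.43% (SD, n = 20) in PV, 70.0 ± 5.32% (SD, n = 21) in SST and 76.5 ± 4.77% (SD, n = 21) in VIP pools. Camk2g made up 19.3 ± 4.89% in PV against 10.3 ± 3.48% in PYC, 11.3 ± 3.56% in SST and 6.51 ± 2.81% in VIP. Camk2b stayed between 15.5% and 17.6% on average and Camk2d between 0.903% and 1.74%. PV pools therefore had the lowest Camk2a and highest Camk2g share, and VIP pools the reverse.

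Ratios of counts within a library do not depend on its total. The log2 ratio of Camk2a to Camk2b was 1.75 ± 0.33 (SD) in PYC, 1.67 ± 0.31 in PV, 1.78 ± 0.39 in SST and 2.05 ± 0.43 in VIP pools. Among 30 ratio tests, each by a 2-sided permutation of libraries and adjusted together, VIP differed from PV (-0.39 for PV minus VIP, permutation adjusted p = 0.0107). VIP against PYC missed the threshold (adjusted p = 0.0513) and passed without the 6 libraries of few mitochondrial counts (adjusted p = 0.00264). The ratio of Ppp3ca to Ppp3cb was 2.01 ± 0.61 in PYC and 1.04 ± 0.52 in PV, with SST at 1.62 ± 1.04 and VIP at 1.67 ± 0.83. PV was below PYC (permutation adjusted p = 0.0004, from 2e-05, the smallest that 100000 resamples can give) and below VIP (adjusted p = 0.0270). The ratio of the 4 CaMKII genes together to both calcineurin A genes was 1.96 ± 0.31 in PYC, 2.10 ± 0.39 in PV, 2.03 ± 0.32 in SST and 2.54 ± 0.39 in VIP. VIP was above each other type (permutation adjusted p = 0.0004 against PYC, 0.00870 against PV and 0.0004 against SST), and the other 3 types did not differ beyond their spread.

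**Figure D4:**
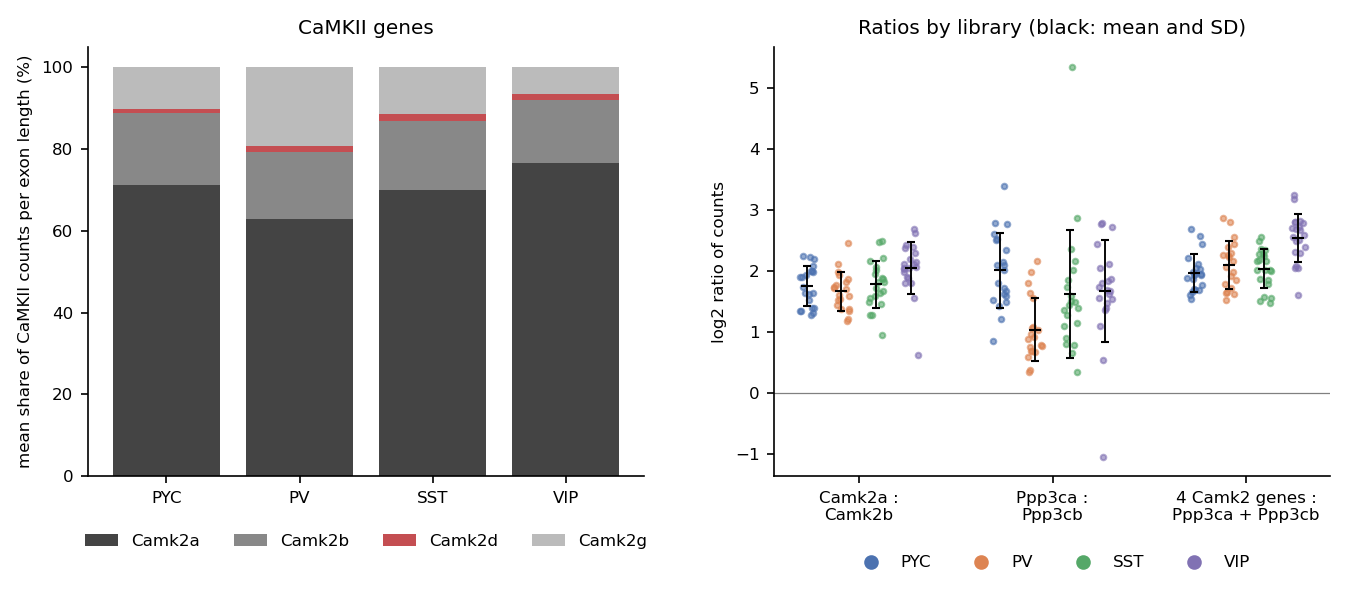
Left, mean share in percent of CaMKII counts per exon length held by each of the 4 subunit genes in each type. Right, log2 ratios of counts in each library by type, with the mean and SD in black. Camk2g takes 19.3% in PV against 6.51% in VIP, and the ratio of CaMKII to calcineurin A counts is highest in VIP, at 2.54.

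Partners of these enzymes were described from lists. Of 10 other CaM kinases and CaMKII inhibitors, 4 were called higher and 1 lower in PYC than PV, 3 and 2 against SST, and 2 and 1 against VIP. The pseudokinase gene Camkv was higher in PYC than PV by 1.86 ± 0.16, than SST by 0.81 ± 0.15 and than VIP by 0.69 ± 0.15. The inhibitor gene Camk2n2 went the other way, at -2.15 ± 0.24, -1.82 ± 0.23 and -1.63 ± 0.23. The second inhibitor gene, Camk2n1, was higher in PYC than PV (0.86 ± 0.13) and SST (0.39 ± 0.13), and was lower in PV than VIP (-1.12 ± 0.13) and in SST than VIP (-0.64 ± 0.13). The medians of this list were 0.61, -0.10 and -0.24 in PYC against PV, SST and VIP.

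Calmodulin genes and genes of calmodulin-storing proteins were called in 1 direction only against PYC: 4 of 6 were higher in PYC than PV, 3 than SST and 3 than VIP, and none was called lower. Nrgn, whose product neurogranin holds calmodulin in spines, exceeded PV by 1.88 ± 0.17, SST by 1.77 ± 0.16 and VIP by 1.06 ± 0.16. Calm2 exceeded them by 0.55 ± 0.12, 0.33 ± 0.11 and 0.51 ± 0.11. The list medians were 1.21, 0.36 and 0.48. Reads that a calmodulin gene shares with processed copies may have been counted under either.

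Among the 8 tested other subunits, anchors and inhibitors of calcineurin, 2 were called lower in PYC than PV and 1 higher, 4 lower than SST and 3 lower than VIP, and 0 higher against these 2. The list medians were 0.16, -1.15 and -0.37. The inhibitor gene Rcan2 was at -2.31 ± 0.19, -2.01 ± 0.19 and -0.67 ± 0.18 and Rcan3 at -3.41 ± 0.49, -3.14 ± 0.48 and -2.65 ± 0.47 in PYC against PV, SST and VIP. Akap5, the anchor of calcineurin at the postsynaptic membrane, was lower in PYC than SST (-0.82 ± 0.24) and in PV than SST (-1.42 ± 0.25).

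Of 10 postsynaptic partners of CaMKII, 5 were called higher in PYC than PV, 3 than SST and 2 than VIP, with 1 lower than VIP, the scaffold gene Shank3 (-0.50 ± 0.15). Lrrc7, the densin scaffold gene, was higher in PYC than PV by 1.11 ± 0.13, and the scaffold gene Dlg4 was higher than PV by 0.62 ± 0.10 and than SST by 0.43 ± 0.10. Of 7 genes of protein phosphatase 1 and its inhibitors, the catalytic gene Ppp1cc was lower in PYC, by -1.73 ± 0.19 against PV, -1.10 ± 0.18 against SST and -0.57 ± 0.18 against VIP. The inhibitor gene Ppp1r1a was higher in PYC than PV (0.98 ± 0.28) and SST (0.89 ± 0.27). In this list 3 genes were called higher in PYC than PV, 1 than SST and 0 than VIP, with Ppp1cc as the 1 called lower each time. Of 12 tested downstream transcription factors and coactivators, 2 were called higher in PYC against each type. Mef2d was at 0.84 ± 0.13, 0.52 ± 0.13 and 0.47 ± 0.13, the CREB coactivator gene Crtc1 at 0.86 ± 0.17 against PV, and Mef2c at 0.91 ± 0.12 and 0.54 ± 0.12 against SST and VIP. Mef2a was lower in PYC than PV (-0.89 ± 0.22).

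The second comparison asked whether the genes differ between old and young mice within a type. None of the 9 was called in any type with edgeR fitted within the type, and 0% of all genes were called in each type (12508 tested in PYC, 12564 in PV, 12805 in SST, 12337 in VIP). At an unadjusted p under 0.05 there was 1 member in PYC, 0 in PV, 1 in SST and 3 in VIP, beside 2.89%, 2.29%, 2.87% and 2.98% of all genes, so 5 of 36 values are described below without a call. DESeq2 and limma-voom called none of the 9 in any type. Without a filter on low counts edgeR called 1 member in SST and 1 in VIP (Camk2b, adjusted p = 0.0225, and Ppp3cb, adjusted p = 0.0287), along with 5734 and 7117 genes of the table. The median log2 fold change of the 9, old minus young, was -0.05 in PYC, 0.05 in PV, -0.13 in SST and -0.06 in VIP, with 5, 3, 7 and 5 of 9 negative.

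In SST pools Camk2b ran through 367, 463 and 701 CPM in young and 239, 350.4 and 456 CPM in old libraries. The groups overlapped, with 6 of 9 young libraries above every old one and all 12 old libraries below the young median. The log2 fold change was -0.45 ± 0.13 (edgeR p = 0.00110 unadjusted, adjusted p = 0.9999). Leaving out young replicate 6, the highest library and 1 of those with few mitochondrial counts, gave -0.38, and values without each library in turn lay between -0.48 and -0.38. In the same pools Camk2a was at -0.10 ± 0.12, so the log2 ratio of Camk2a to Camk2b was higher in old pools by 0.34 (exact permutation p = 0.0411, adjusted p = 0.123). None of the ratios had an adjusted p under 0.05 with age in any type. The ratio of Ppp3ca to Ppp3cb, old minus young, was -0.54 in PYC (exact permutation p = 0.0451, adjusted p = 0.123). It was 0.26 in PV, -0.74 in SST and 0.68 in VIP (exact permutation adjusted p = 0.416, 0.255 and 0.139). The young SST mean includes replicate 5, at 5.35 beside 0.34 to 2.86 in the others. The lowest young VIP library, replicate 9, stood at -1.04.

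VIP pools held the other 3 values. Ppp3cb ran through 97.9, 171 and 388 CPM in young and 50.7, 106 and 137 CPM in old libraries, with 6 of 9 young libraries above every old one. Its log2 fold change was -0.78 ± 0.25 (edgeR p = 0.00290 unadjusted, adjusted p = 0.9996), and it was -0.56 without young replicate 9, the highest. Camk2g ran through 54.8, 119 and 199.7 CPM in young and 96.5, 188.5 and 291 CPM in old libraries, at 0.64 ± 0.23 (edgeR p = 0.00869 unadjusted), with 11 of 12 old libraries above the young median. Camk2d ran through 25.1, 91.8 and 191 CPM in young and 58.9, 142 and 259.6 CPM in old libraries, at 0.60 ± 0.29 (edgeR p = 0.0467 unadjusted). Without the VIP libraries of few mitochondrial counts Camk2g was at 0.46 and Camk2d at 0.47, while Ppp3cb was at -0.90. Beside these, SST markers in VIP pools summed to 395 to 733 CPM in young and 399.9 to 2474 CPM in old libraries, and VIP markers to 1887 to 4243 CPM and 1368 to 3011 CPM. Their part in these values was not tested.

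In PYC pools Camkk2 ran through 214, 329.8 and 388 CPM in young and 138, 250.3 and 361 CPM in old libraries, and 10 of 12 old libraries lay below the young mean. The log2 fold change was -0.38 ± 0.17 (edgeR p = 0.0357 unadjusted, adjusted p = 0.99995), with values from -0.44 to -0.32 when each library was left out in turn. Summed dendritic neuropil mRNAs were 5048 to 11367 CPM in young and 3752 to 7688 CPM in old PYC pools, and their part in this value was not tested. Ppp3cb in PYC was at 0.41 ± 0.23 and Camk2a at -0.13 ± 0.10. The other 31 of the 36 values lay between -0.34 and 0.41. For the most precise of them, Camk2a, approximate 95% intervals were -0.32 to 0.07 in PYC, -0.02 to 0.44 in PV, -0.33 to 0.13 in SST and -0.30 to 0.17 in VIP, so an increase or decrease of 2-fold lay outside each.

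**Figure D5:**
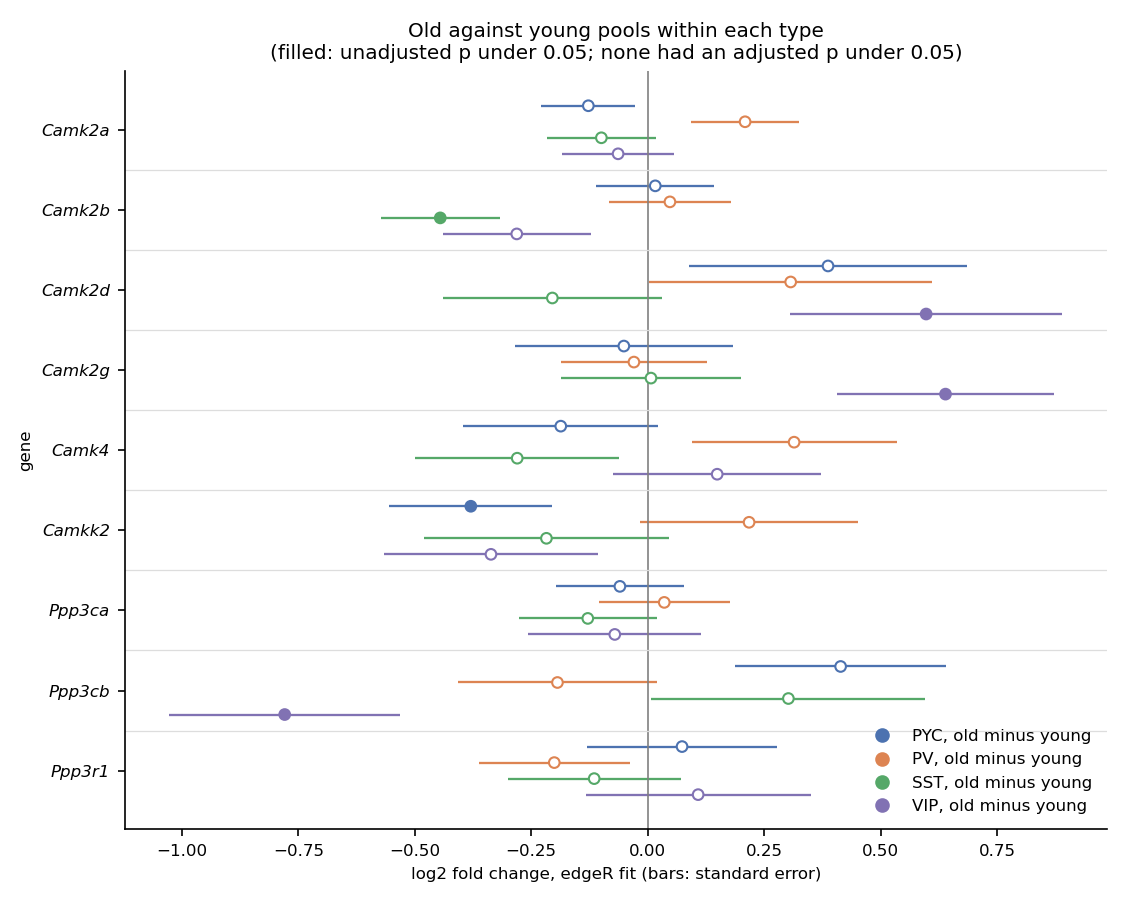
Log2 fold changes of the 9 genes, old minus young (horizontal axis), in each neuron type. Bars are standard errors derived from the edgeR F-tests, and points are filled where the unadjusted p was under 0.05. The 5 filled points are Camk2b in SST, Camkk2 in PYC, and Camk2g, Camk2d and Ppp3cb in VIP, and none of them had an adjusted p under 0.05.

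The partner lists gave no call with age either. Of the genes tested in the 6 partner lists, 3 of 49 in PYC (6.12%), 1 of 49 in PV (2.04%), 3 of 51 in SST (5.88%) and 2 of 49 in VIP (4.08%) had an unadjusted p under 0.05, beside 2.89%, 2.29%, 2.87% and 2.98% of all genes. These were Dapk1 (-0.46 ± 0.19), Nrgn (-0.42 ± 0.19) and the third A subunit gene Ppp3cc (2.83 ± 0.92) in PYC, and Shank3 (0.41 ± 0.19) in PV. In SST they were Pnck (-1.52 ± 0.56), Camk1g (0.79 ± 0.33) and Nfatc3 (1.28 ± 0.60), and in VIP Camk1 (-0.67 ± 0.31) and Creb1 (1.15 ± 0.42).

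The third comparison asked whether the age difference itself differs between types. edgeR's interaction test, fitted to the 8 groups, called 0 of the 9 genes, while 3.12% of 19208 genes were. The smallest p was that of Ppp3cb (p = 0.00566, edgeR adjusted p = 0.101), which was positive in PYC (0.41) and SST (0.30) and negative in PV (-0.19) and VIP (-0.78). Camk2b came next (p = 0.0285, edgeR adjusted p = 0.264), at -0.45 in SST, -0.28 in VIP, 0.02 in PYC and 0.05 in PV. The other 7 had an unadjusted p of 0.0597 or more. DESeq2 called 1 gene of the table and none of the 9.

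Over the 83 libraries the members followed Camk2a to different degrees. Spearman's rho with Camk2a was 0.69 for Camk2b, 0.68 for Camk4, 0.54 for Ppp3ca, 0.51 for Camkk2, 0.34 for Ppp3r1, 0.23 for Camk2d, 0.02 for Ppp3cb and -0.21 for Camk2g. Ppp3r1 was closest to Ppp3ca among the members (rho 0.63). These values mix differences between types with those within them, and libraries share depth and quality, so they are a description. Among the 9604 more abundant genes (mean level no lower than the median), those most like Camk2a were the neuronal pentraxin receptor gene Nptxr (rho 0.84), Chst1 (0.81), the transcription factor gene Zbtb18 (0.79), Enc1 (0.79) and the sodium-calcium exchanger gene Slc8a2 (0.79). Camk2b was closest to Baiap2 (0.79) and Nptxr (0.77), Camk4 to Enc1 (0.77) and Phyhip (0.76), and Camkk2 to the calcium sensor gene Hpca (0.70) and Sh3gl2 (0.70). Ppp3ca was close to Ngef (0.73), and Ppp3r1 to Nckap1 (0.64) and Ppp3ca. Camk2g lay closest to the synaptic vesicle fusion gene Snap25 (0.75) and Lynx1 (0.72). For Camk2d (Rev3l, 0.48, and Lingo2, 0.44) and Ppp3cb (Serinc1, 0.45, and Rock2, 0.45) no gene came above 0.48.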

How the data were processed

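The authors deposited raw read counts per gene, as 1 table of 83 libraries and 48795 genes, 48435 of them with a symbol. Per the labels' protocols, neurons were laser-captured and libraries made with a stranded total RNA kit for very small inputs. Per the submitters' processing notes, HISAT2 and GRCm38 were used. For the counting tool, its annotation and strand use, nothing is given in the sources used here. Overlapping genes could share reads. No column was left out and no 2 columns were identical.

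Counts were tested with edgeR 4.0.16 (R 4.3.3; TMM factors, filterByExpr with a minimum count of 10, robust quasi-likelihood F-test, Benjamini-Hochberg adjustment), within a type for age and over all 8 groups for types and for the interaction. All 9 members passed the filter. On simulated counts the fits were checked only for the size of planted fold changes. Rates of false or missed calls are not given here. Alternatives were DESeq2 1.42.0, limma-voom 3.58.1 with quality weights, other filters and scalings, each age alone, the F number as a factor, the library total as a covariate, no libraries under 3% mitochondrial counts, and each library left out in turn. Ratios (pseudocount 0.5) and relations (log2 CPM, prior count 2) were tested with permutations of libraries, exact for age and 100000 resamples otherwise (Python 3.11.15, scipy 1.17.1).

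The labels do not tie libraries to mice, so p-values measure the spread between libraries. Replicate numbers follow accession order. Named genes were the members, the stained genes and Gad1, up to 4 genes of a list with the smallest p in a comparison, and the genes with the highest rho. Camk2n1 against SST and the markers set beside Camk2a were named after their values were seen. The members and lists were chosen with earlier results of these data known. A few genes that the naming rule picked are not reported here.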

Additional observations from a re-analysis of the deposited data

Results flagged for a closer look

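In 7 of 48 sets of libraries (9 genes and 3 ratios in each of the 4 young groups, the old groups of 12 being too large for the rule) 1 library stood far from the rest. The rule flags about 1 in 20 sets of normally distributed values. CPM need not be distributed so, and the 48 sets share genes and libraries, so the 2 rates cannot be compared. Ppp3r1 was 99.7 CPM in young PYC replicate 2, against 353 to 609 CPM in the others of its group. Camk2b was 701 CPM in young SST replicate 6, against 367 to 519 CPM. The log2 ratio of Camk2a to Camk2b was 0.63 in young VIP replicate 3, against 1.80 to 2.61. These 3 libraries are among the 6 with few mitochondrial counts, and whether that bears on the values was not tested. Ppp3r1 was 366 CPM in young PV replicate 3, against 207 to 281 CPM. Camk4 was 213 CPM in young SST replicate 7, against 81.1 to 147 CPM. The log2 ratio of Ppp3ca to Ppp3cb was 5.35 in young SST replicate 5, against 0.34 to 2.86, where Ppp3cb stood at 7.99 CPM. Ppp3cb was 388 CPM in young VIP replicate 9, against 97.9 to 199.6 CPM.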

How the results depend on the processing

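There were 54 values of a member between 2 types. Direction and side of the threshold were kept by 53 each with the CPM filter, DESeq2, the library total and no filter. They were kept by 52 with RLE factors and without libraries under 3% mitochondrial, and by 51 with the F number. With limma-voom 43 kept both, in old libraries alone 38 and in young ones 36. Among the more abundant genes the same fit was only adjusted anew, so direction could not change, and 54 kept their side. No paired analysis was possible because replicate numbers follow accession order. The causes of the changes below were not tested, except that single ages and the stricter filters use fewer libraries or genes.

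Genes called at or above the median abundance, without a filter, in young and in old libraries alone were 2098, 5367, 1175 and 1422 for PYC against PV, 1266, 4749, 548 and 838 for PYC against SST, 1113, 4768, 467 and 609 for PYC against VIP, 1200, 3960, 515 and 733 for PV against SST, 2057, 5946, 1105 and 1235 for PV against VIP, and 643, 4250, 210 and 274 for SST against VIP (750 with the CPM filter), beside 3228, 2077, 1814, 2094, 3247 and 1253. Members called fell to 4 of 7 for PYC against SST and to 1 of 3 for SST against VIP in young libraries, and for PV against SST from 3 to 1 with RLE factors, limma-voom and old libraries and to 0 in young ones.

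For age, no filter called 6505 genes in PYC, 6355 in PV, 5734 in SST and 7117 in VIP, with 1 member in SST and 1 in VIP. The fit of all 8 groups called 1 gene in PYC and 1 in PV, limma-voom 2 and 2, and DESeq2 2 in PV and 1 in SST. Leaving out each library in turn gave 0 in every type. The interaction called 1 gene at or above the median abundance, 9 with the CPM filter, 1 with DESeq2, 314 with the F number and 7680 (1 member) with no filter, the last chosen after seeing the data. Relations of Camk2a to pyramidal markers that passed fell from 1 to 0 with Slc17a7 alone, where r in VIP was 0.0026, and to 0 without libraries under 3% mitochondrial.

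The values that turned sign were called neither as reported nor under the setting that turned them. In old libraries alone PV against SST gave 0.12 for Camk2b, 0.26 for Camk4, 0.12 for Camkk2 and -0.034 for Ppp3cb, and SST against VIP -0.021 for Camk2g, 0.52 for Ppp3cb and -0.049 for Ppp3r1. In young libraries alone Ppp3cb was -0.19 in PYC against PV, -0.29 in PYC against VIP and -0.10 in PV against VIP, Ppp3r1 0.11 in PV against VIP and Camk2d 0.18 in SST against VIP. With limma-voom Ppp3r1 was 0.21 in PV against SST, 0.028 in PV against VIP, -0.19 in SST against VIP and -0.051 for age in PYC, and age gave 0.0037 for Camk2g in PV, -0.074 for Camk2g in SST and -0.093 for Camk4 in VIP. Without libraries under 3% mitochondrial Ppp3r1 was -0.018 in SST against VIP and -0.072 for age in VIP. For age, Camk2a in PYC was 0.022 with the F number, Camk2b in PYC -0.017 with RLE factors and -0.016 with DESeq2, and Camk2g in SST -0.0077 in all 8 groups, -0.0020 with no filter and -0.0029 with the CPM filter.

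Leaving out 1 library turned the sign of age values near 0: Camk2a in VIP ran from -0.13 to 0.00016, Camk2b from -0.028 to 0.090 in PV and -0.039 to 0.059 in PYC, Camk2g from -0.10 to 0.037 in PV, -0.15 to 0.049 in PYC and -0.080 to 0.099 in SST, Ppp3ca from -0.048 to 0.073 in PV and -0.17 to 0.021 in VIP, and Ppp3r1 from -0.058 to 0.15 in PYC and -0.015 to 0.36 in VIP.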
